A study of Mus musculus with 8 samples.

Results

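The T cell receptor of an αβ T cell is a pair of chains, each made from a variable and a constant segment, and the members described here are the variable and constant segments of the 4 receptor loci. Every row of the expression table whose gene name begins with Tra, Trb, Trd or Trg followed by v or c was taken, which gave 174 of 47069 rows. They comprised 128 Trav, 35 Trbv, 6 Trdv and 1 Trgv variable segments together with the constant segments Trac, Trbc1, Trbc2 and Trdc. The γ constant genes carry names of another form in the table (Tcrg-C1, Tcrg-C2 and Tcrg-C4) and were therefore not members.

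RNA was sequenced from OT-I CD8+ T cells, which come from mice with a transgenic receptor that recognises an ovalbumin peptide on H-2Kb. Cells from lymph nodes, with the genotype given as WT, were cultured for 24 h with 10 nM of the altered peptide SIITFEKL (OVA-T4) alone, or with OVA-T4 and 5 ng/ml recombinant TGFβ, in 4 libraries each, labelled as biological replicates 1 to 4. Both groups carried the same transgenic receptor, and there was no group without peptide. The study used OT-I and OT-I Rag1-/- mice, age- and sex-matched, without stating which of them gave the RNA, and no sort of the cells is described. The paper gives a high typical purity of CD8 T cells from OT-I Rag1-/- lymph nodes, but none for these samples. In OT-I mice with functional Rag1, endogenous receptor loci can still rearrange, so the strain limits what segments beside the transgenic ones can stand for.

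Variable, diversity and joining segments are joined by the RAG recombinase in developing thymocytes, and the joined exon is spliced to a constant segment. The β locus holds a pair of clusters, in which the first diversity and joining segments lie upstream of Trbc1 and the others upstream of Trbc2. Segments that were not joined can also give germline transcripts. The δ segments lie inside the α locus, between the Trav segments and the Traj and Trac segments. The OT-I receptor is known as a Vα2 and Vβ5 receptor by antibody staining, which in the present nomenclature are the Trav14 and Trbv12 families.

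Several segments have close relatives, so the sequences that decide which row a read can be given to are shown first. All are 100-base stretches of coding sequence from the GENCODE M21 transcripts on GRCm38, on the plus strand, 5′ to 3′. In the first sequence of each set, capitals mark positions at which any other sequence of the set differs, and in the others they mark differences from the first. The constant segments Trbc1 (chr6:41538428-41538527) and Trbc2 (chr6:41546940-41547039) differed at 1 base in this stretch of the first constant exon.
Trbc1: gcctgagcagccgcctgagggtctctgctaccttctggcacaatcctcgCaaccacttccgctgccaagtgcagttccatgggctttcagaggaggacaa
Trbc2: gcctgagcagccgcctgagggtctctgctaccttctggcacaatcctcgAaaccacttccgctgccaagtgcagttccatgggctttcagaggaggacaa
The 3′ ends of the Vβ segments Trbv12-1 (chr6:41113968-41114067) and Trbv12-2 (chr6:41119265-41119364), which run up to the bases that join the diversity segment, differed at 5 bases.
Trbv12-1: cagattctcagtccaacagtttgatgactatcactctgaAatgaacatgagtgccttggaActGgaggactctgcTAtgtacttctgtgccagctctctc
Trbv12-2: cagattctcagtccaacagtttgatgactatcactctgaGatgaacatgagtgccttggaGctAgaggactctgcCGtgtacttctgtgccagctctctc
The corresponding ends of 4 Trav14 segments, Trav14-1 (chr14:53554459-53554558), Trav14-2 (chr14:53641126-53641225), Trav14d-1 (chr14:52856067-52856166) and Trav14n-1 (chr14:53167079-53167178), are shown because Trav14d-1 and Trav14n-1 cannot be told from each other by coding sequence.
Trav14-1: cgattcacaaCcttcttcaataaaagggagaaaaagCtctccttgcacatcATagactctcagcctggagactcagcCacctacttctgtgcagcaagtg
Trav14-2: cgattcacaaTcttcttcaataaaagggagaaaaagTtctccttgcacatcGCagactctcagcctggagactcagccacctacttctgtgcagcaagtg
Trav14d-1: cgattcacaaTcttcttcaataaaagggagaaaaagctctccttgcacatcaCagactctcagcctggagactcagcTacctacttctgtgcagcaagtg
Trav14n-1: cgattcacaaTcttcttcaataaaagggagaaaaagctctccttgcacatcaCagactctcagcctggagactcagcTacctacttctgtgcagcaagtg

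Over the whole coding sequence, Trbc1 and Trbc2 were 95.6% identical and differed at 23 of 518 positions. The differences lay mainly in the third coding exon, at 15 of 107 positions, against 1 of 375 in the first. Trbv12-1 and Trbv12-2 were 88.2% identical. Within the Trav14 family, pairs ranged from 92.6% to 100% identity. Trav14d-1 and Trav14n-1 were identical over 364 coding bases, as were Trav14d-2 and Trav14n-2. Every 100-base window of those 4 transcripts also occurred in another gene, whereas none of the windows of Trav14-1, Trbv12-1 or Trac did. In Trbc1 28.7% and in Trbc2 30.9% of the 100-base windows occurred in the other gene. Read length and the treatment of reads that match several genes are not given in the sources used here, so values of Trav14d-1, Trav14d-2, Trav14n-1 and Trav14n-2 and, in part, of Trbc1 and Trbc2 are uncertain in how reads were divided between copies.

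Values are FPKM, fragments scaled to gene length in kilobases and to the library total in megareads. Library totals solved from the values ranged from 35586261 to 41597929 reads, so that 1 read in a gene of 1 kb was worth 0.0240 to 0.0281 FPKM. The test was limma on log2(FPKM + 0.5) in genes averaging 0.5 FPKM or more across all libraries, with Benjamini-Hochberg adjustment over all 12879 genes tested, and fold changes on this scale understate those of low genes. Of all genes tested, 51.0% passed an adjusted p of 0.05, 30.7% higher and 20.2% lower with TGFβ, and in 48.1% the groups did not overlap. The median log2 change of all genes tested was 0.08. In bulk RNA, fewer cells of a type and less RNA per cell cannot be told apart, which holds for every change below.

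Of the 174 segments, 109 were at 0 in all 8 libraries and 65 had a value above 0 in at least 1. Only 11 were above 0 in all 8 libraries, and 16 were above 0 in a single library. A library showed 27 to 30 segments above 0 with OVA-T4 and 29 to 36 with OVA-T4 + TGFβ. The mean filter left 12 segments to test, of which 5 were higher with TGFβ (Trbc1, Trav14-1, Trav14-2, Trdc and Trdv5), 0 lower and 7 did not pass. The 5 calls are 41.7% of those tested, near the 51.0% of all genes. Trav14-2 passed the filter only through its TGFβ libraries and so had to differ, which leaves 4 calls that do not depend on the filter in this way. The median log2 change of the 12, Trav14-2 included, was 0.36. In 4 of the 12, with Trav14-2 among them, the groups did not overlap, against 48.1% of all genes.

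**Figure D1:**
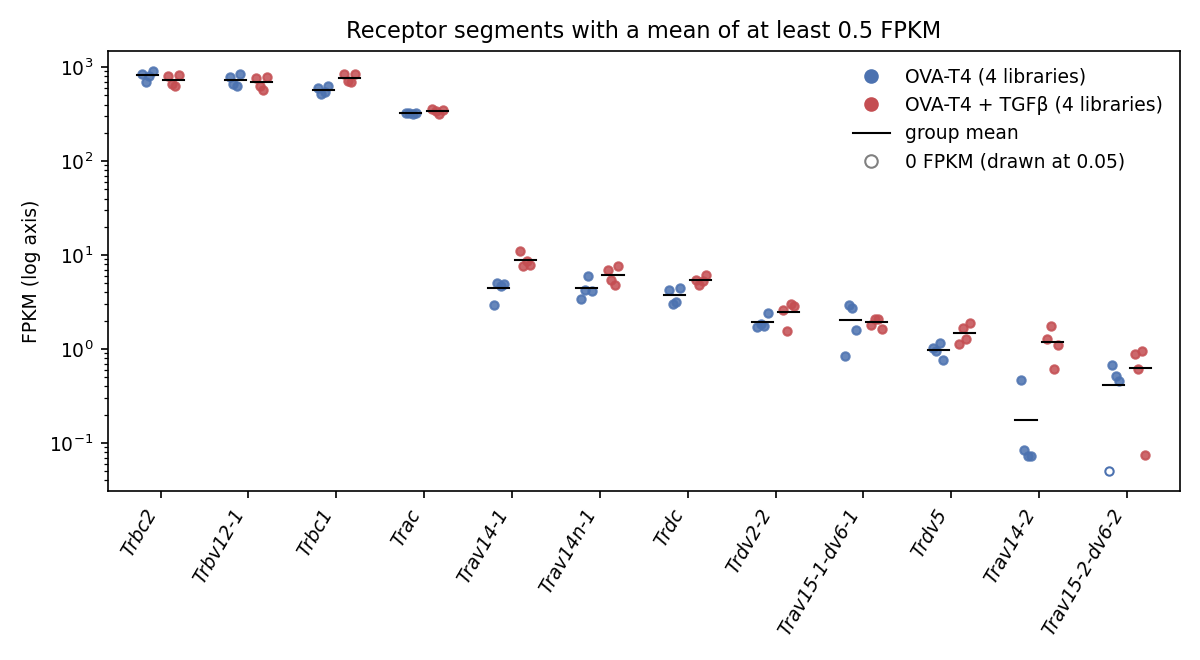
FPKM on a log axis of the 12 receptor segments that passed the mean filter, each point a library and each black line a group mean. Trbc2, Trbv12-1, Trbc1 and Trac lie between 316 and 915 FPKM and every other segment lies under 12 FPKM.

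The β chain was carried by a single variable segment. Trbv12-1, a Vβ5 segment (ENSMUSG00000095574, chr6:41113550-41114067), was measured at 778, 660.3, 628 and 845 FPKM in OVA-T4 replicates 1 to 4. With TGFβ it was at 769, 630.3, 568 and 789 FPKM. The groups overlapped throughout, with means of 728 ± 101 and 689 ± 107 FPKM (SD, n = 4). The log2 change of -0.08 (SE 0.13) did not pass (limma, adjusted p = 0.619). Each TGFβ library was lower than the OVA-T4 library of the same replicate number. When the replicate number was used as a block, the SE was 0.031 and the change still did not pass (limma, adjusted p = 0.0543). Segments of the Trbv12 family held 99.9 to 100% of the FPKM summed over Trbv segments in every library.

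Reads in all other Trbv segments together numbered 2 to 10 per library, beside 8723 to 13681 in all Trbv segments. Their share was lowest in OVA-T4 replicate 1, at 0.0173% (95% exact Clopper-Pearson interval 0.00209 to 0.0624%), and highest in OVA-T4 + TGFβ replicate 3, at 0.0917% (0.0396 to 0.181%). These intervals overlap and cover counting error only. The reads lay in 8 segments, with 13 in Trbv13-2, 10 in Trbv20, 5 in Trbv21 and 5 in Trbv12-2 over the 8 libraries. Trbv20 was at 0 in all OVA-T4 libraries and had 2, 0, 5 and 3 reads with TGFβ. The other 26 Trbv segments were at 0, which over 85046 Trbv reads allows a share of up to 0.00353% each.

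The constant segments of the β chain were at the same order of level as Trbv12-1, and the pair shifted with TGFβ. Trbc1 (ENSMUSG00000076490, chr6:41538218-41539881), the constant segment of the first cluster, was at 596, 516, 542 and 629 FPKM with OVA-T4. With TGFβ it was at 841, 718, 698 and 843 FPKM. All TGFβ libraries were above all others, the means were 571 ± 51.0 and 775 ± 77.8 FPKM (SD, n = 4), and Trbc1 rose by 0.44 on the log2 scale (SE 0.086; limma, adjusted p = 0.00247). Trbc2 (ENSMUSG00000076498, chr6:41546730-41548352), the constant segment of the second cluster, was at 851, 701, 804 and 915 FPKM with OVA-T4. In the TGFβ libraries it was at 805, 660.0, 637 and 833 FPKM. The groups overlapped, and the log2 change of -0.16 (SE 0.11) did not pass (adjusted p = 0.253). With the replicate number as a block the same change passed as lower (adjusted p = 0.0217).

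Within each library, Trbc1 over Trbc2 was 0.701, 0.736, 0.674 and 0.687 with OVA-T4, and 1.04, 1.09, 1.10 and 1.01 with TGFβ. Trbc2 was thus the higher of the pair in every OVA-T4 library and the lower in every OVA-T4 + TGFβ library. The log2 of this ratio differed by 0.60 between groups (two-sided exact permutation test, p = 0.0286, the smallest that 4 against 4 libraries allow), a test chosen after the values were seen. Permuted only within pairs of the same replicate number, the exact p was 0.125, the smallest that 4 pairs allow, so the paired design cannot pass the threshold. The share of the summed Trbc FPKM in Trbc2 was 58.8 ± 0.920% with OVA-T4 and 48.6 ± 0.926% with TGFβ (SD, n = 4). Counted as reads, without division by gene length, the shares were 61.3% and 51.1%, so that on this scale Trbc2 stayed above Trbc1 in both groups. A ratio within a library does not change with the scaling of the library. The summed Trbc level was 1388 ± 139.9 FPKM with OVA-T4 and 1509 ± 177 FPKM with TGFβ.

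**Figure D2:**
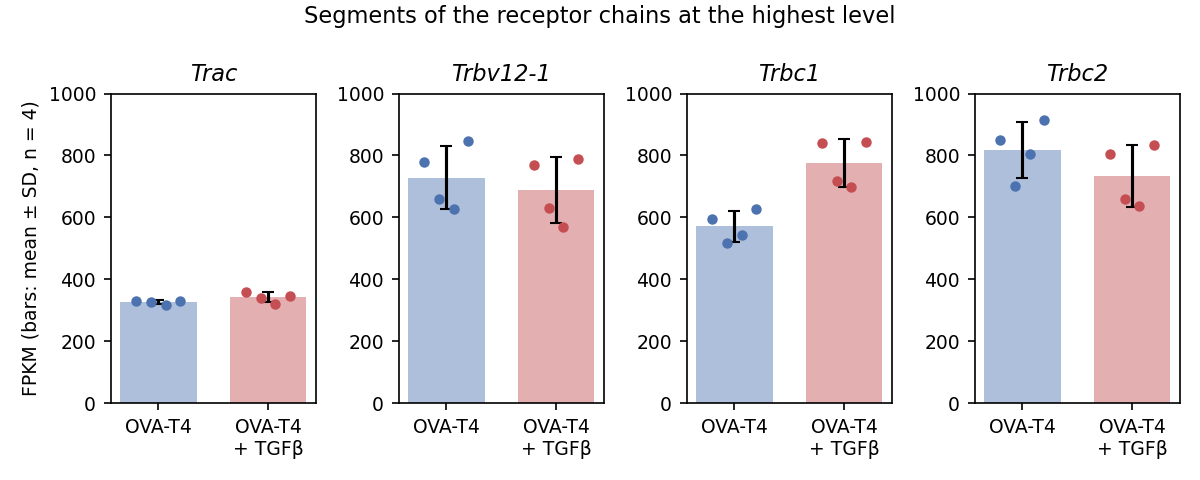
FPKM of Trac, Trbv12-1, Trbc1 and Trbc2 in the 2 groups, with bars at the mean, error bars of 1 SD (n = 4) and a point for each library in replicate order. The groups do not overlap for Trbc1, at 516 to 629 and 698 to 843 FPKM, and overlap for the other segments shown.

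The diversity and joining segments beside these constant segments are not members, but show the same division along the locus. All 8 segments of the first cluster, Trbd1 and Trbj1-1 to Trbj1-7, were higher with TGFβ, by 0.52 to 0.78 on the log2 scale, and in all 8 the groups did not overlap. Of all genes, 30.7% were higher and 48.1% did not overlap. The 8 segments lie close together, at chr6:41533201-41535687, so they are not separate observations. Trbj1-4 was at 606, 414, 485 and 624 FPKM with OVA-T4 and at 987, 835, 806 and 1002 FPKM with TGFβ. Of the 8 segments of the second cluster, Trbd2 and Trbj2-1 to Trbj2-7, 0 passed, with log2 changes of -0.15 to 0.25. Trbj2-1 was at 239.6, 237, 285 and 268 FPKM with OVA-T4 and at 248, 228, 187 and 271 FPKM with TGFβ. The difference between the clusters was tested only through Trbc1 over Trbc2. The first-cluster segments were called higher in all 18 alternatives tried, and of the second cluster 1 segment was called higher under the replicate block and 1 without OVA-T4 + TGFβ replicate 2. These genes are 12 to 53 bases long by the solved lengths, so their FPKM values rest on few bases and are not to be set against those of longer genes.

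**Figure D3:**
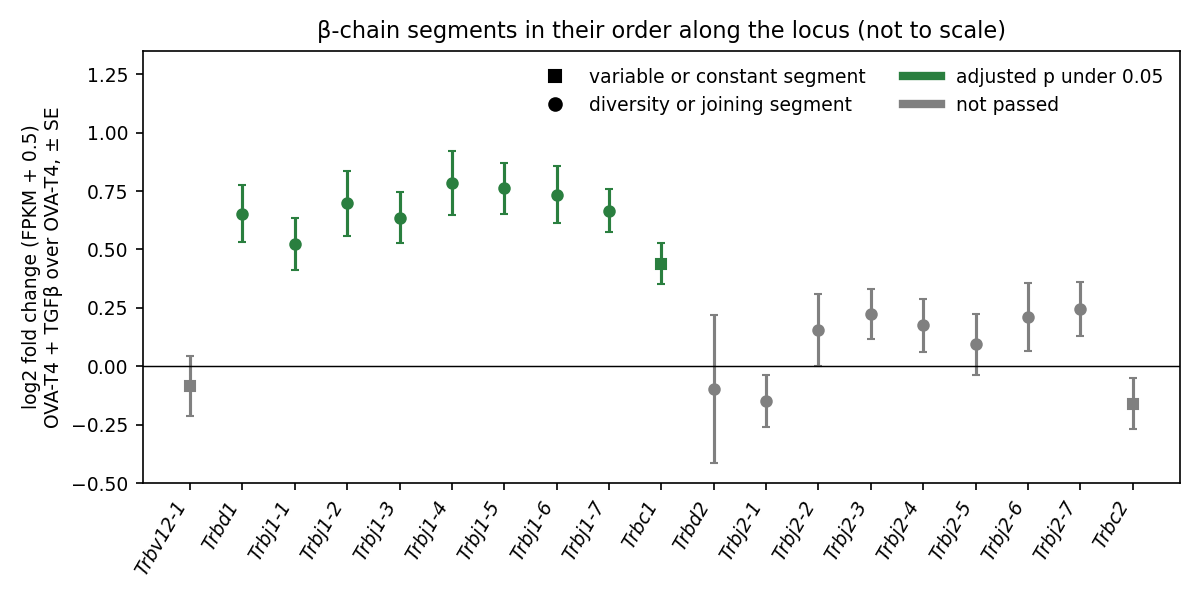
Log2 fold change of OVA-T4 + TGFβ over OVA-T4 with its SE for the β-chain segments from Trbv12-1 to Trbc2, in their order along the chromosome. The 8 segments Trbd1 to Trbj1-7 and Trbc1 lie at 0.44 to 0.78 and passed the test, and those from Trbd2 to Trbc2 lie at -0.16 to 0.25 and did not.

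The α chain was seen through its constant segment. Trac (ENSMUSG00000076928, chr14:54220521-54224206) was at 329, 328, 316 and 329 FPKM with OVA-T4. The values with TGFβ were 360.0, 339.9, 321 and 346 FPKM. The groups overlapped, the means were 325 ± 6.29 and 342 ± 16.2 FPKM (SD, n = 4), and the log2 change of 0.07 (SE 0.045) did not pass (limma, adjusted p = 0.229). The sum of Trbc1 and Trbc2 was 4.27 ± 0.412 times Trac with OVA-T4 and 4.41 ± 0.366 times with TGFβ, per length of gene.

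No α variable segment was near the level of Trac. The Trav14 family, to which the Vα2 segments belong, held 69.2 ± 4.23% of the summed Trav FPKM with OVA-T4 and 75.2 ± 3.98% with TGFβ (SD, n = 4). In level this was 9.48 ± 1.68 and 17.3 ± 2.20 FPKM, or 2.92 ± 0.556% and 5.06 ± 0.445% of the Trac level, whereas Trbv12-1 was at 52.4 ± 3.81% and 45.5 ± 2.07% of the summed Trbc level. In reads, all Trav segments together had 137 to 420 per library, beside 7922 to 9716 in Trac. The table therefore shows which family leads among the α variable segments but does not give the transgenic α variable segment a level like that of its constant segment. The cause was not tested. The transgene's own sequence was not used here.

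Within the Trav14 family, Trav14-1 and Trav14n-1 held most of the signal. Trav14-1 (ENSMUSG00000076840, chr14:53554022-53554558), whose 100-base windows are all its own, was at 2.95, 5.10, 4.65 and 4.94 FPKM with OVA-T4. The TGFβ libraries had 11.1, 7.61, 8.64 and 7.90 FPKM. All TGFβ libraries were above all others, at means of 4.41 ± 0.993 and 8.81 ± 1.58 FPKM (SD, n = 4) and a log2 change of 0.93 (SE 0.17; limma, adjusted p = 0.00186), from 45 to 82 and from 108 to 177 reads per library. Trav14n-1 (ENSMUSG00000096827), of the same coding sequence as Trav14d-1, was at 3.39, 4.28, 5.99 and 4.20 FPKM with OVA-T4. The TGFβ libraries had 6.94, 5.43, 4.76 and 7.60 FPKM. Here the groups overlapped and the log2 change of 0.43 (SE 0.18) did not pass (adjusted p = 0.0760), but it did pass when OVA-T4 replicate 3 was left out (0.57, adjusted p = 0.0227) or when OVA-T4 + TGFβ replicate 3 was (0.54, adjusted p = 0.0392). Trav14d-1, its copy of identical coding sequence, had 1 read over the OVA-T4 libraries and 3 over the others. Of these 2 copies, reads thus lay almost only in Trav14n-1. The reason for this division was not tested, and the treatment of reads that match several genes is not given in the sources used here.

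Trav14-2 (ENSMUSG00000095711, chr14:53640701-53641225) was at 0.473, 0.0840, 0.0726 and 0.0724 FPKM with OVA-T4, which were 6, 1, 1 and 1 reads. With TGFβ it was at 1.28, 1.78, 0.611 and 1.09 FPKM, from 17, 21, 8 and 13 reads. The groups did not overlap, with means of 0.175 and 1.19 FPKM and a fitted log2 change of 1.32. As only the TGFβ group lay above the filter, this value is a description. Of the other members of the family, Trav14-3 and Trav14d-3-dv8 had 32 and 20 reads over the 8 libraries, Trav14n-3 had 33, and Trav14d-2 and Trav14n-2 had 1 each, in the same library. Trav14n-3 had 1, 0, 2 and 1 reads with OVA-T4 and 6, 3, 17 and 3 with TGFβ.

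**Figure D4:**
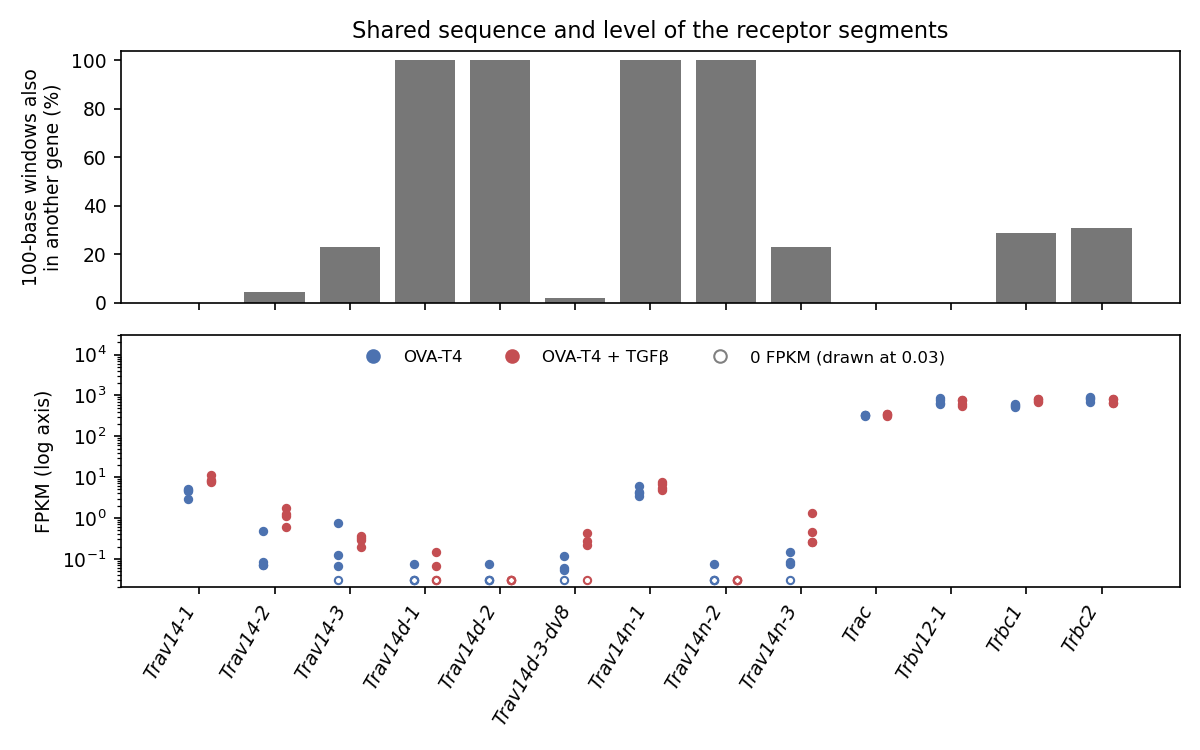
Upper panel: share of the 100-base windows of each transcript that also occur in another gene. Lower panel: FPKM of the same segments in each library on a log axis. Trav14d-1, Trav14d-2, Trav14n-1 and Trav14n-2 are at 100% in the upper panel, and Trav14-1, Trac and Trbv12-1 at 0%.

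Outside the Trav14 family, Trav segments summed to 4.32 ± 1.36 FPKM with OVA-T4 and 5.74 ± 1.36 FPKM with TGFβ, from 33 to 105 reads per library. The segment with the highest level was Trav15-1-dv6-1, a segment that can join either Traj or Trdd segments and that lies next to Trav14-1. It was at 0.841, 2.92, 2.71 and 1.61 FPKM with OVA-T4 and at 1.81, 2.11, 2.11 and 1.65 FPKM with TGFβ. The groups overlapped and it did not pass (log2 change 0.03, adjusted p = 0.939), and neither did its relative Trav15-2-dv6-2 (0.29, adjusted p = 0.528).

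The filter of 0.5 FPKM lay between Trav15-2-dv6-2, Trav14-2 and Trdv5, with means of 0.522, 0.683 and 1.24 FPKM, and Trav13-1, Trav14n-3 and Trav6d-7, with means of 0.492, 0.330 and 0.271 FPKM. Trav13-1, on the other side of Trav14-1, had 0, 2, 1 and 1 reads with OVA-T4 and 9, 9, 13 and 14 with TGFβ. Its means were 0.0785 and 0.905 FPKM, so that a lower filter would also admit it only through the TGFβ group. Trav6d-7 had 29 of its 31 reads in OVA-T4 + TGFβ replicate 1 and 0 in every OVA-T4 library. Trav13-3 had 18 reads, of which 11 were in OVA-T4 replicate 3, and Trav15n-1 had 15. The 53 segments above 0 and under the filter had a median of 4 and at most 49 reads over the 8 libraries. Of these, 26 were above 0 in both groups, 15 only with TGFβ and 12 only with OVA-T4.

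**Figure D5:**
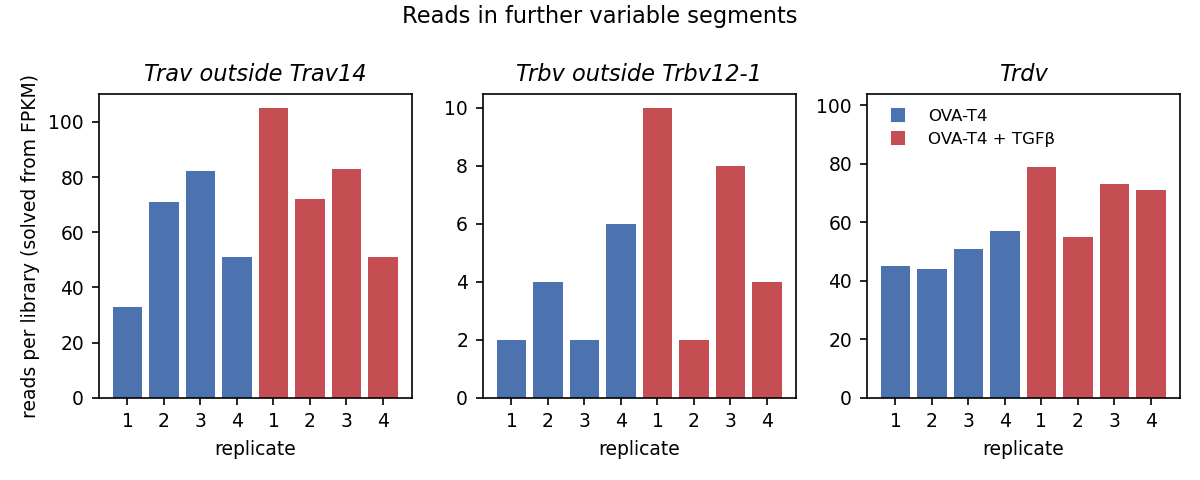
Reads per library, solved from the FPKM values, in the Trav segments outside the Trav14 family, the Trbv segments outside Trbv12-1 and the Trdv segments, with a separate linear axis for each panel. The Trav bars run from 33 to 105 reads, the Trbv bars from 2 to 10 and the Trdv bars from 44 to 79.

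The δ segments were low but present in every library. Trdc (ENSMUSG00000104876, chr14:54142851-54148868), the constant segment of the δ chain, was at 4.27, 3.05, 3.15 and 4.45 FPKM with OVA-T4. With TGFβ it was at 5.43, 4.86, 5.27 and 6.17 FPKM. All TGFβ libraries were above all others, the means were 3.73 ± 0.732 and 5.43 ± 0.549 FPKM (SD, n = 4), and Trdc rose by 0.50 on the log2 scale (SE 0.13; limma, adjusted p = 0.0123). Trdv5, which lies beyond Trdc on the opposite strand, was at 1.02, 0.956, 1.16 and 0.768 FPKM with OVA-T4. The values with TGFβ were 1.14, 1.67, 1.27 and 1.91 FPKM. The groups overlapped at 1.14 and 1.16 FPKM, and the log2 change of 0.43 passed narrowly (SE 0.16, adjusted p = 0.0495), a call that was lost in 14 of 18 alternatives. With the replicate block it was also lost (adjusted p = 0.0717).

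Trdv2-2 was at 1.71, 1.83, 1.76 and 2.42 FPKM with OVA-T4 and at 2.58, 1.56, 3.00 and 2.88 FPKM with TGFβ. The groups overlapped through OVA-T4 + TGFβ replicate 2, which was the lowest of all 8, and Trdv2-2 did not pass (log2 change 0.29, adjusted p = 0.223), but did so without that library (0.46, adjusted p = 0.0254). Trdv4 had 36 reads over the 8 libraries, of which 17 were in OVA-T4 + TGFβ replicate 1, and Trdv1 and Trdv2-1 had 1 each. All Trdv segments together had 44 to 57 reads with OVA-T4 and 55 to 79 with TGFβ. Trdc and Trdv5 overlap by 207 bases on opposite strands, and Trdc, Trdv2-2, Trdv2-1 and Trdv4 each overlap an annotated antisense gene. No use of strand in the counting is stated, so reads of such partners cannot be told apart. Trgv2, the γ variable segment among the members, had 1 read in each of 2 libraries, both with TGFβ. The γ constant genes had at most 0.952 FPKM (Tcrg-C4), with 27, 36 and 93 reads over the 8 libraries in Tcrg-C1, Tcrg-C2 and Tcrg-C4.

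Among the remaining joining and diversity segments, 9 of 55 Traj segments tested were higher with TGFβ and 0 lower, and of 3 tested δ segments Trdd2 (log2 change 1.41, adjusted p = 0.0145) and Trdj1 (1.30, adjusted p = 0.0298) were higher. The groups overlapped for Trdj1, and its call was lost with no filter (adjusted p = 0.0726) and without OVA-T4 replicate 3 (0.0715), OVA-T4 + TGFβ replicate 1 (0.0826) or OVA-T4 + TGFβ replicate 3 (0.0587). With the replicate block, 12 Traj segments were higher and 3 lower. Over all joining and diversity segments the count was 19 higher, 0 lower and 55 not passed of 74 tested, beside the 30.7% higher of all genes. Of the 9 Traj segments, Traj36, Traj53 and Traj54 averaged under 0.5 FPKM with OVA-T4 and passed the filter only through the TGFβ group. Among the other 6 the largest changes were in Traj7 (1.74) and Traj50 (1.54), whose calls were lost in 6 and 7 of 18 alternatives, and in Traj61 (1.39), called in all 18. Traj53 had 0, 0, 0 and 2 reads with OVA-T4 and 8, 3, 5 and 4 with TGFβ.

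The receptor chains reach the cell surface only with the CD3 subunits, and CD8 binds the same peptide and MHC complex beside them. Of this list of 7 genes, 5 were higher with TGFβ and 0 lower, beside 30.7% higher of all genes. Under median of ratios scaling 2 were higher (Cd3e and Cd8a), and 3 were without OVA-T4 replicate 2 or 3 or without OVA-T4 + TGFβ replicate 1 or 4. Cd3e was at 204, 187, 183 and 196 FPKM with OVA-T4 and at 279, 242, 246 and 272 FPKM with TGFβ, without overlap (log2 change 0.43, adjusted p = 0.000357). Cd8a, the α chain of CD8, rose by 0.41 (adjusted p = 0.00155), Cd3g by 0.28 (0.0213), Cd247, the ζ chain, by 0.19 (0.00630) and Cd3d by 0.18 (0.0268). The calls of Cd3g and Cd3d were each lost in 6 of 18 alternatives, and Cd247 did not pass under median of ratios scaling, where its change was 0.09 (adjusted p = 0.178). Cd8b1, the β chain of CD8, had a change of 0.05 (adjusted p = 0.400) and Cd4 of 0.01 (adjusted p = 0.954), and neither passed.

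Of 14 genes of V(D)J recombination and the pre-receptor, 4 were higher, 2 lower, 4 did not pass and 4 were below the filter, beside 30.7% higher and 20.2% lower of all genes. The count higher was 2 under median of ratios scaling and when OVA-T4 replicate 1, 2 or 3 or OVA-T4 + TGFβ replicate 4 was left out. The largest changes among those that passed were in Polm, a polymerase of end joining (0.67, adjusted p = 0.000756), Prkdc, the catalytic subunit of the DNA-dependent kinase (0.58, adjusted p = 0.00629), and Xrcc6, which encodes Ku70 (-0.37, adjusted p = 0.00284). Dntt, Rag1, Rag2 and Ptcra were below the filter. Rag1 was at 0.164 to 0.218 FPKM with OVA-T4 and 0.334 to 0.483 FPKM with TGFβ. Of 13 factors known to bind enhancers of the receptor genes, 7 were higher, 3 lower and 3 did not pass, against the same shares of all genes. Among those higher were Runx1 (2.68, adjusted p = 2.38e-07) and Gata3 (1.29, adjusted p = 2.65e-05).

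Markers of other cells were measured beside these results. The 6 CD8 T cell markers summed to 1672 to 1954 FPKM with OVA-T4 and 2029 to 2207 FPKM with TGFβ. B cell markers summed to 209 to 242 and 264 to 283 FPKM, nearly all of it Ighm, with Ms4a1 at 0 in all libraries. Macrophage markers summed to 4.75 to 12.5 and 10.6 to 41.8 FPKM, and dendritic cell markers to at most 1.16 and 2.27 to 3.00 FPKM. Of the latter, Itgax was at 0.170 to 0.437 FPKM with OVA-T4 and 1.52 to 2.03 FPKM with TGFβ. Siglech and Clec9a reached 0.0650 and 0.0183 FPKM at most. CD4 T cell markers summed to 2.30 to 4.91 and 5.18 to 7.39 FPKM. Cd4 itself was at 0.753 to 1.43 and 0.927 to 1.28 FPKM. Zbtb7b was at 1.53 to 3.34 and 3.58 to 5.22 FPKM, and Foxp3 at 0.0130 to 0.143 and 0.573 to 0.896 FPKM. Markers of γδ T cells, which include Trdc itself, summed to 3.73 to 5.82 and 6.21 to 7.64 FPKM. On this list Sox13 was at 0.408 to 1.27 FPKM over all libraries and Blk at no more than 0.0615 FPKM. NK cell markers stayed at or under 0.477 FPKM, and of the NKT and MAIT cell markers Trav11, Trav11d and Trav1 were at 0. Thymocyte markers summed to 5.19 to 7.27 and 11.8 to 13.5 FPKM, mainly Cd1d1. The part of any of these in the changes of Trbc1, Trav14-1, Trdc and Trdv5 and in the values of Trav14-2 was not tested.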

How the data were processed

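RNA-seq was made from 8 libraries of OT-I CD8+ T cells, 4 per group. The authors deposited FPKM values per gene (fragments scaled to gene length and library total by a sequencing company). CASAVA, HISAT2, HTSeq and the build mm10 (GRCm38) are listed in the submitters' processing notes, while read length and annotation release are not given in the sources used here. Column names match the sample labels, and 0 columns were left unused. Of the gene IDs, 46574 (98.9%) were found in GENCODE M21.

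FPKM values were solved as whole reads with a common total per library, and 23841 of 23842 genes above 0 came out whole (tolerance 0.005 reads). Of these, 8176 fitted at their annotated exon length. The others took the smallest length that fits, which gives the fewest reads. A whole fit is therefore a weak check, above all for segments with few reads. For the 11 segments above 0 in all libraries, the length so found lay within 1 base of the mean annotated transcript length. Of 15346 genes above 0 in all libraries, 70.1% did so, and segments with zeros were not in this check. In each library the solved reads summed to more than the total, as at 38341485 against 38233903 in OVA-T4 replicate 1. Library totals of 35586261 to 41597929 reads set the precision, and intervals cover counting error only.

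The 2 groups were compared by limma 3.58.1 (R 4.3.3, variance trend, two-sided) on log2(FPKM + 0.5) in genes averaging 0.5 FPKM or more, with Benjamini-Hochberg adjustment over all genes tested. The script was tested on simulated data. Sequences and identities came from the M21 transcripts, with Python 3.11.15 and Biopython 1.88. Groups came from the labels. Replicate numbers were taken to pair the samples because, across genes, deviations of same-numbered libraries correlated at 0.18, 0.20, 0.42 and 0.50. Differently numbered libraries ranged from -0.49 to 0.25, above the lower 2 of these, so the pairing is a hint from the data and not from the labels.

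The members, gene lists and tests were chosen with earlier results of these data known. Named are the constant segments, the Trav14 and Trbv12 families, segments that passed the test or had a mean of at least 0.5 FPKM in a group, the 3 highest further segments of each locus, those next to the filter, and of each related list the 3 largest changes, apart from items that are not reported here. Nothing states separate animals for the replicates, so p-values measure the spread between these libraries. Alternatives were other pseudocounts, filters and scalings, a replicate block, limma voom on the solved reads, no variance trend, and each library left out.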

Additional observations from a re-analysis of the deposited data

Results flagged for a closer look

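In 5 of 38 sets of 4 libraries examined, the highest or lowest library lay apart from the other 3, where chance marks about 1 in 20 such sets. Trac with OVA-T4 was lowest in replicate 3, at 316 FPKM, beside 328 to 329 FPKM in the others. Trdv2-2 with OVA-T4 was highest in replicate 4, at 2.42 FPKM. Trav14-2 with OVA-T4 was highest in replicate 1, at 0.473 FPKM, which was 6 reads beside 1 in each of the others. The share of Trav FPKM in the Trav14 family with OVA-T4 + TGFβ was highest in replicate 4, at 81.2%. Trbv12-1 over Trbc2 with OVA-T4 + TGFβ was lowest in replicate 3, at 0.891.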

How the results depend on the processing

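Trbc1, Trav14-1 and Trdc were called higher in all 18 alternatives, while Trac, Trbv12-1, Trav15-1-dv6-1 and Trav15-2-dv6-2 passed in none. The count of segments higher was 3 with a mean of at least 1 FPKM, where Trav14-2 was not tested and Trdv5 missed the threshold, and 4 to 5 with a library left out. Trbc2 was called lower, as the 1 segment lower, under median of ratios scaling (-0.26, adjusted p = 0.0492), which moved the median of all genes by -0.09. It was also called lower with the replicate block that pairs libraries by number (-0.16, adjusted p = 0.0217). Under that pairing Trdv5 was lost (adjusted p = 0.0717), and no other call among the 12 segments changed. In limma with all genes, the block gave 4569 higher and 3266 lower, and median of ratios scaling 3129 and 3460, beside 3955 and 2607. Trac was at -0.03 under median of ratios scaling. Counted as reads, Trbc2 held 61.3% of Trbc with OVA-T4 and 51.1% with TGFβ. Trbv13-2, Trbv20 and the other segments with few reads are limited by counting.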
